A study of Mus musculus with 64 samples.

Results

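The genes described here were 33 genes of macrophages and Kupffer cells, chosen by name from the 23338 genes that each library listed, and all 33 were found. They were followed in 64 RNA-seq libraries of C57BL/6 mice (C57BL/6 J in the study's methods), none of which carried an engineered allele or a treatment according to the labels. The libraries came from 12 single eight-cell embryos (6 male, 6 female), 4 lines of ES cells kept in 2i medium (2 male, 2 female), 24 livers of late-gestation fetuses and 24 livers of adults (12 male and 12 female at each stage). The embryo libraries were made with an amplified single-cell protocol, whereas ES cells and livers were processed with a stranded total RNA kit, so protocol and stage cannot be told apart where embryos are set beside the rest. The ES lines had been derived from eight-cell embryos, and each liver library was made from whole frozen tissue, a mixture of many cell types. Nothing in the labels says which livers shared a litter or a cage, so p-values measure the spread between these samples.

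Kupffer cells are the resident macrophages of the liver and sit in the sinusoids, where they take up bacteria, immune complexes and worn-out red blood cells. They are seeded by embryonic precursors during fetal life and depend on signalling through the CSF1 receptor. The fetal liver is at the same time the main site of blood formation, and its macrophages also serve erythroid islands, while many leukocyte genes are shared between macrophages, monocytes and neutrophils.

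Reads assigned to genes numbered between 5145371 and 8499603 in fetal livers, between 1567583 and 4757610 in adult livers, between 4659656 and 7725432 in embryos and between 9857929 and 10386931 in ES lines. A count of 3 reads corresponded to between 0.289 and 1.91 CPM (read counts scaled to library size), depending on the library's depth. No 2 libraries were identical, and the order of Xist and the Y-linked Ddx3y matched the gender label in 64 of 64 libraries. Hepatocyte markers summed to between 27384 and 37424 CPM in fetal and between 52321 and 77608 CPM in adult livers. Levels are CPM with TMM factors over all 64 libraries, whereas each fold change comes from a fit with its own TMM factors. For the members, the log2 ratio of mean CPM lay a median of 0.10 below the fitted log2 (adult/fetal).

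The promoters of 26 of the 33 members were listed in RefSeq (GRCm38.p6), each covering the 300 bases around the start of the gene. PU.1 is the master transcription factor of myeloid cells and is encoded by a member, listed as Sfpi1. Its core letters GAGGAAG, or CTTCCTC on the other strand, occurred in the promoters of 9 of these 26 members (34.6%) and of 15.4% of 27025 genes. The 9 were C1qc, Cd5l, Ctss, Fcgr3, Fcna, Itgam, Laptm5, Marco and Mrc1. The AP-1 letters TGACTCA occurred in 7.69% of members and 5.95% of genes, and the nuclear receptor part-site AGGTCA in 26.9% and 18.1%, each counted on both strands. These matches describe the letters and do not show binding. Fcna, with the most matches, is shown with Itgam and Marco, which fell strongly between fetal and adult liver. Of the other holders, Fcgr3 and Laptm5 were also lower in adult liver by the thresholds given below. C1qc, Cd5l, Ctss, Mrc1 and Fcna itself did not pass these thresholds, and a link between the letters and the change was not tested. Each sequence runs 5′ to 3′ along the gene's strand, and capitals mark the PU.1 letters, of which the last 2 matches in Fcna share 1 base.
Fcna (chr2:25627925-25628224, minus strand): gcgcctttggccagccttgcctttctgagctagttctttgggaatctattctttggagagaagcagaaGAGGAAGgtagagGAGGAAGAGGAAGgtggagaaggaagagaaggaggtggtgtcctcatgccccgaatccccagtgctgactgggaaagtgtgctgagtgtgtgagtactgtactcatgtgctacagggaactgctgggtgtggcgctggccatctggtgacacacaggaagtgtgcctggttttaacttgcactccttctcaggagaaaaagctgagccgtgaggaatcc
Itgam (chr7:128062390-128062689, plus strand): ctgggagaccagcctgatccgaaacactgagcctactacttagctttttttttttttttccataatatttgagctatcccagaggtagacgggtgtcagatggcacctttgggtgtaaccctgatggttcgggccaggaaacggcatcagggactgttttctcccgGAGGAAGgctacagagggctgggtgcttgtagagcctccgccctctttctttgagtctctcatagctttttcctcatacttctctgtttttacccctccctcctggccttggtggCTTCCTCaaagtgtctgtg
Marco (chr1:120504975-120505274, minus strand): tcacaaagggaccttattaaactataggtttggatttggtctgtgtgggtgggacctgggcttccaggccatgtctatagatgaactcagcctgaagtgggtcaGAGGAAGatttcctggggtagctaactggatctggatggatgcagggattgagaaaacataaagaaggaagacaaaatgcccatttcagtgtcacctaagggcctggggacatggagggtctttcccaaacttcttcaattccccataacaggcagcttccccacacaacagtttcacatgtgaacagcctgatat

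**Figure D1:**
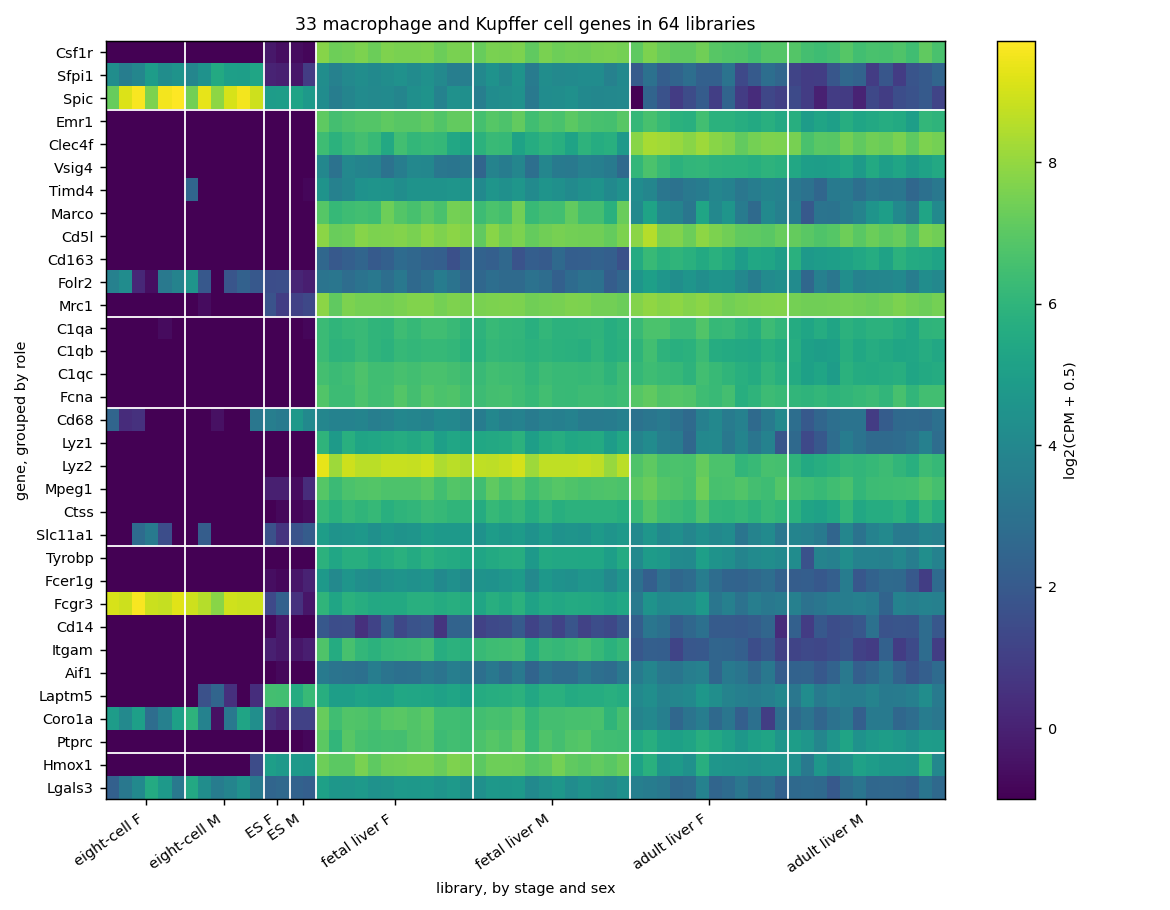
Level of each member (rows, grouped by role) in each of the 64 libraries (columns, by stage and sex), as log2(CPM + 0.5). All 33 members had reads in both liver stages, whereas 20 had no read in any of 12 embryos and 12 had none in any of 4 ES lines.

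Before the liver forms, most of these genes were silent. Of the 33 members, 20 had no read in any of the 12 embryos, Csf1r, Emr1, Clec4f, Vsig4, Marco, Cd5l, Cd163, Lyz2, Tyrobp and Ptprc among them, which allows up to 0.644 CPM in the shallowest embryo library for a count of 0. A few members were abundant in embryos. Spic, an ETS factor needed for iron-recycling macrophages, had a lowest, median and highest level of 149, 547 and 842 CPM in embryos, and Fcgr3, a low-affinity receptor for IgG, had 222, 477 and 772 CPM. Sfpi1 lay between 11.1 and 44.9 CPM in embryos, Lgals3 between 4.44 and 46.2 CPM and Coro1a between 0.199 and 60.8 CPM.

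ES lines had a different set. Laptm5, a lysosomal membrane protein of leukocytes, stood at 47.4, 73.7, 91.9 and 87.4 CPM in lines 1 to 4, of which 1 and 2 were male. Hmox1, which breaks down haem, stood at 27.2, 26.0, 31.3 and 27.6 CPM in the same lines, and Spic at 37.1, 26.8, 29.5 and 30.5 CPM. The macrophage sialomucin Cd68 stood at 25.6, 16.7, 11.6 and 9.74 CPM. For Cd68 both male lines lay above both female lines, and for Laptm5 both lay below, in a comparison of 2 lines against 2 that was not tested. In embryos, Laptm5 reached at most 5.16 CPM and Hmox1 2.28 CPM.

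Members were read in livers with the spread that whole tissue gives. The coefficient of variation over 24 livers ran from 9.65% (Mrc1) to 42.5% (Cd14) in fetal and from 13.1% (Mrc1) to 63.3% (Spic) in adult liver, the latter with 0 to 12 reads per library. Scaled by exon length (CPM per kilobase, median over livers), lysozyme Lyz2 was highest in fetal liver at 310, followed by Cd5l at 93.8 and Hmox1 at 89.6. In adult liver Cd5l at 75.1 and Clec4f at 74.7 stood highest, followed by C1qa at 59.1, and the lowest were Spic at 0.434 and Itgam at 0.535. Lyz1 and Lyz2 are 96.0% identical over 1262 aligned bases, so their reads may have been split with error, and exons of Csf1r, Coro1a, Fcna, Folr2 and Itgam overlap those of another gene.

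Adult and fetal liver were compared in the 48 livers with sex as a covariate, to ask how the macrophage genes changed as blood formation left the liver. A gene was called when its edgeR adjusted p was under 0.1 and its absolute log2 ratio above 0.5. All 33 members were tested, and 5 were higher and 19 lower in adult liver. Of all 13026 genes tested, 31.8% were called higher and 35.3% lower. The median log2 (adult/fetal) was -0.76 over the members and -0.05 over all genes. The adult and fetal ranges of CPM did not overlap for 16 of 33 members, and for 40.7% of all genes tested. In bulk tissue, fewer cells of a type and less RNA per cell cannot be told apart.

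All 3 lineage genes were lower in adult liver, against 35.3% of all genes. Csf1r, the receptor on which macrophages depend, ranged from 136 to 217 CPM with a median of 184 in fetal livers and from 83.4 to 194 CPM with a median of 113 in adult livers. The ranges overlapped, and the log2 (adult/fetal) was -0.52 ± 0.06 (SE, edgeR adjusted p = 2.89e-11). It was not called in females alone, at -0.38. Sfpi1 fell from a median of 16.7 (10.5 to 21.98) to 3.90 (1.35 to 8.01) CPM, a log2 of -1.93 ± 0.13, and Spic from 17.1 (9.71 to 22.5) to 1.67 (0 to 5.02) CPM, a log2 of -2.95 ± 0.15. Neither range overlapped.

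The surface genes split in both directions. Of the 9, 4 were higher, 3 lower and 2 not called, against 31.8% of all genes called higher and 35.3% called lower. Cd163, the scavenger receptor for haemoglobin bound to haptoglobin, changed most. It ranged from 2.55 to 6.25 CPM with a median of 4.22 in fetal livers and from 27.0 to 74.0 CPM with a median of 44.2 in adult livers. Every adult liver lay above every fetal liver, and the log2 was 3.48 ± 0.10 (edgeR adjusted p = 1.12e-37). Vsig4, the complement receptor CRIg, rose from a median of 11.03 (5.17 to 15.8) to 48.5 (28.0 to 103) CPM, a log2 of 2.24 ± 0.11. Clec4f, a C-type lectin used to mark mouse Kupffer cells, rose from 60.0 (26.2 to 90.3) to 185 (100.3 to 318) CPM, a log2 of 1.78 ± 0.11. Folr2, a folate receptor of tissue macrophages, rose from 6.79 (3.92 to 10.8) to 17.4 (5.54 to 32.6) CPM, a log2 of 1.41 ± 0.10, with overlapping ranges.

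Other surface genes fell over the same interval. Marco, a scavenger receptor for bacteria, fell from a median of 93.7 (56.1 to 177) to 14.3 (3.46 to 38.8) CPM, a log2 of -2.61 ± 0.18, with no overlap. Emr1, which encodes the F4/80 antigen, fell from 115 (85.7 to 139) to 51.5 (29.7 to 97.4) CPM, a log2 of -0.997 ± 0.081. The phosphatidylserine receptor gene Timd4 fell from 21.7 (12.6 to 23.97) to 9.45 (5.33 to 17.9) CPM, a log2 of -0.93 ± 0.09. Both ranges overlapped, and of the 24 adult livers 22 for Emr1 and 18 for Timd4 lay below every fetal liver. The mannose receptor gene Mrc1 had medians of 188 and 183 CPM, with a log2 of 0.16 ± 0.04, and Cd5l, a secreted scavenger protein, 191 and 153 CPM, with a log2 of -0.08 ± 0.08.

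**Figure D2:**
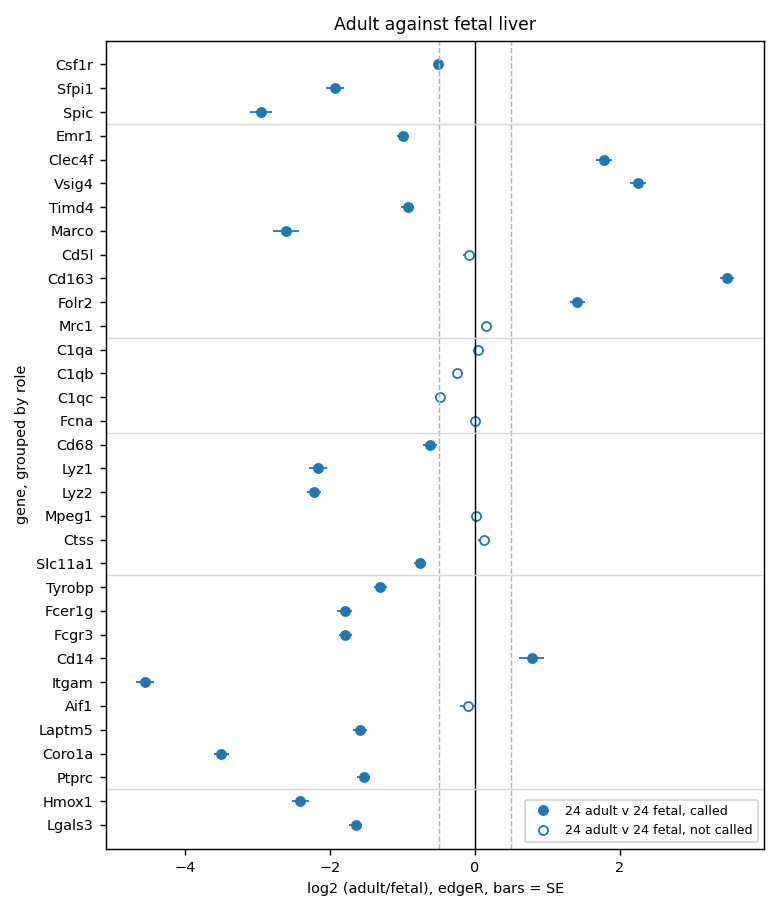
Log2 (adult/fetal) of each member with its standard error, by role, from the fit of 48 livers. Filled points passed both thresholds, and dashed lines mark an absolute log2 of 0.5. Cd163 stands farthest right at 3.48 and Itgam farthest left at -4.55.

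No gene of the complement group was called. C1qa, C1qb and C1qc encode the chains of C1q, which starts the classical pathway, and Fcna encodes a ficolin that starts the lectin pathway. Medians in fetal and adult livers were 65.3 and 61.5 CPM for C1qa, 63.1 and 47.8 CPM for C1qb, 82.4 and 53.4 CPM for C1qc and 87.3 and 77.8 CPM for Fcna. The fitted log2 was 0.04 ± 0.07 for C1qa, -0.25 ± 0.06 for C1qb, -0.48 ± 0.06 for C1qc and -0.003 ± 0.069 for Fcna. C1qc lay just under the fold threshold and was called lower with the size factors of DESeq2, at -0.58, while the sign of C1qa depended on the scaling.

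The lysosomal and phagosomal genes were lower in 4 of 6 cases, against 35.3% of all genes. Lyz2 fell from a median of 409 (271 to 634) to 76.6 (45.0 to 146) CPM, a log2 of -2.22 ± 0.09, and Lyz1 from 43.9 (27.8 to 62.5) to 8.22 (2.08 to 17.6) CPM, a log2 of -2.16 ± 0.12. Neither lysozyme overlapped between stages. Slc11a1, the phagosomal metal transporter NRAMP1, had a log2 of -0.76 ± 0.09, and Cd68 of -0.62 ± 0.10, which was not called in females alone, at -0.37. The perforin-like gene Mpeg1 (log2 0.02 ± 0.07) and the protease gene Ctss (0.12 ± 0.07) were not called.

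Genes of myeloid and leukocyte signalling were mostly lower, 7 of 9, with 1 higher and 1 not called. Of all genes, 35.3% were called lower and 31.8% higher. Itgam encodes CD11b, the integrin of monocytes, neutrophils and macrophages. It ranged from 47.7 to 107 CPM with a median of 72.5 in fetal livers and from 1.35 to 6.45 CPM with a median of 2.69 in adult livers, where libraries held 2 to 13 reads. Its log2 was -4.55 ± 0.13 (edgeR adjusted p = 2.90e-37). Coro1a, an actin regulator of leukocytes, fell from 95.4 to 7.96 CPM in the median, a log2 of -3.50 ± 0.11. Ptprc, which encodes CD45, had a log2 of -1.53 ± 0.09. The immunoreceptor adaptors Tyrobp and Fcer1g had -1.31 ± 0.09 and -1.80 ± 0.11, Fcgr3 had -1.79 ± 0.09 and Laptm5 -1.58 ± 0.09. Cd14, the co-receptor for lipopolysaccharide, was higher, at 0.78 ± 0.17, on 1 to 38 reads per liver, and Aif1 was not called, at -0.09 ± 0.11. Hmox1 and the galectin gene Lgals3 both fell, by 2.41 ± 0.11 and 1.64 ± 0.09 on the log2 scale.

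Markers of other blood cells moved between the stages as well. All 14 neutrophil genes were lower in adult liver, and their summed level ranged from 1832 to 3870 CPM in fetal and from 8.73 to 30.1 CPM in adult livers, where Ctsg and Camp had no read. The 4 monocyte genes tested of 6 were lower too, with sums of 86.5 to 159 and 2.99 to 15.6 CPM. The same held for 9 of 9 erythroid, 7 of 7 megakaryocyte, 7 of 7 B lineage, 5 of 5 T and NK and 2 of 2 mast cell and basophil genes tested, and for 2 of 4 dendritic cell genes. Sinusoidal endothelial genes were higher for 4 and lower for 1 of 11, stellate cell genes 5 and 3 of 10, cholangiocyte genes 1 and 3 of 5, and hepatocyte genes 7 and 0 of 8. The part of these cells in the members' fall was not tested. Among 90 further macrophage genes, 86 were tested, of which 19 were higher and 40 lower, with a median log2 of -0.32. For all these lists the shares of all genes were 31.8% higher and 35.3% lower. The further macrophage genes with the smallest adjusted p were Nr1h3 (log2 2.56), Lamp1 (1.59) and Lipa (1.49) among the higher and Ncf1 (-3.36), Inpp5d (-2.34) and Mfge8 (-1.80) among the lower. Summed over the 90, the median level was 6535 CPM in embryos, 3827 CPM in ES lines, 7615 CPM in fetal and 9638 CPM in adult livers. The list is therefore not particular to macrophages, here and in the comparisons of sex below, and the cells behind its changes were not tested.

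**Figure D3:**
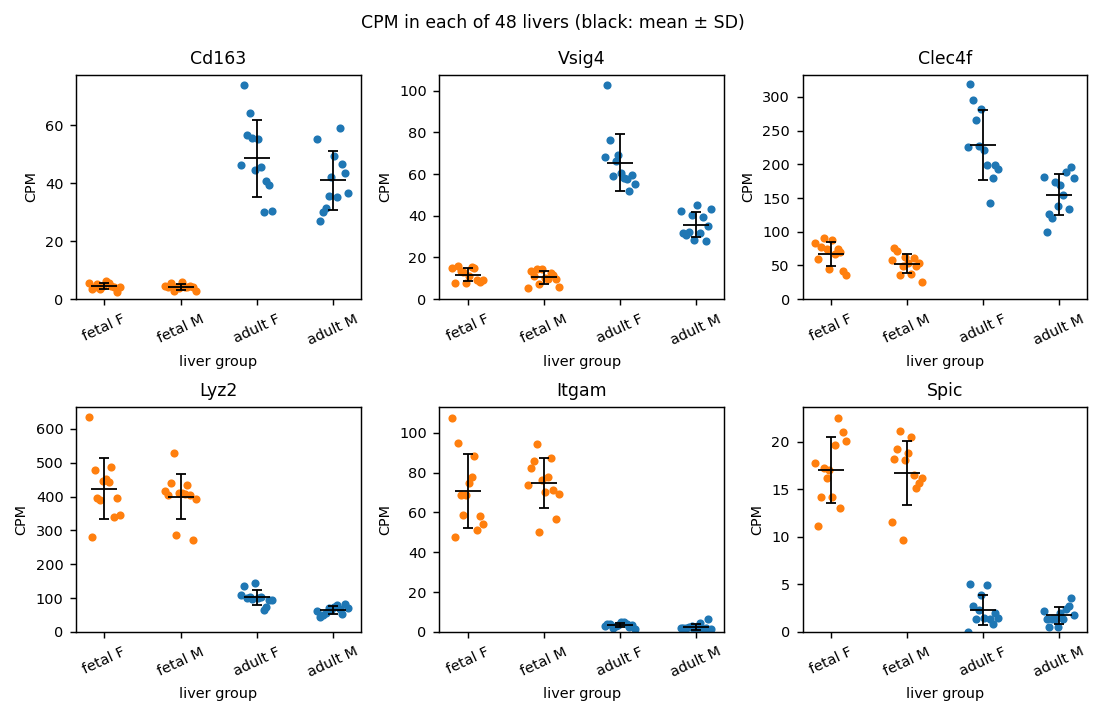
CPM of 6 members in each of the 48 livers, by stage and sex, with the mean and SD of each group in black. Cd163, Vsig4 and Clec4f were higher in every adult than in any fetal liver, whereas Lyz2, Itgam and Spic were lower in every adult liver.

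The effect of sex was then examined within each stage. In fetal liver, no member of 33 was called in either direction, against 3.81% of 12930 genes called higher and 0.828% called lower in males. The median log2 (male/female) was -0.14 over members and -0.03 over all genes. Of the 33 members 14 had an unadjusted edgeR p under 0.05, as had 5235 of the 12930 genes. With DESeq2 also 0 members were called. The 3 C1q genes and Fcna had log2 values between -0.23 and -0.15. Laptm5 came closest to a call. It ranged from 32.1 to 52.2 CPM with a median of 35.8 in females and from 42.8 to 59.0 CPM with a median of 50.02 in males, a log2 of 0.49 ± 0.07 (edgeR adjusted p = 4.27e-06), just under the fold threshold. The share of reads that lay outside genes ran from 34.1% to 38.1% in the livers of female fetuses and from 39.9% to 49.0% in those of males. These ranges did not overlap, so sex and this share cannot be told apart in fetal liver. Of the 87 further macrophage genes tested, Runx1, Siglec1 and C5ar1 were higher in males (log2 0.78, 0.61 and 0.60), and none was lower.

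In adult liver, 15 of the 29 members tested were called lower in males, 0 were called higher and the others were not called, against 6.48% of 10372 genes called lower and 3.01% called higher. All 29 log2 values were negative, with a median of -0.51 against -0.001 over all genes. Sfpi1, Spic, Cd14 and Itgam had too few reads to be tested. Among the 90 further macrophage genes, 75 were tested, with 28 lower and 1 higher and a median of -0.43. Ctsc and Npc2 were lower in males (log2 -1.46 and -0.59), and Cebpb was higher (0.91).

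Vsig4, which is X-linked, separated the sexes. It ranged from 51.6 to 103 CPM with a median of 60.0 in 12 females and from 28.0 to 45.3 CPM with a median of 33.7 in 12 males. The ranges of the sexes were apart for 2.46% of all genes tested, and for no member but Vsig4. Its log2 (male/female) was -0.90 ± 0.10 (edgeR adjusted p = 1.33e-08). Clec4f ranged from 143 to 318 CPM (median 224) in females and from 100.3 to 196 CPM (median 162) in males, a log2 of -0.59 ± 0.12. Folr2, Timd4 and Emr1 followed at -0.60 ± 0.15, -0.56 ± 0.14 and -0.51 ± 0.14. Cd5l (-0.47 ± 0.15), Mrc1 (-0.31 ± 0.05), Cd163 (-0.27 ± 0.14) and Marco (-0.25 ± 0.33) were not called.

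Of the 3 C1q chains, 2 were called lower in males in adult liver, against 6.48% of all genes. C1qa had a median of 77.0 (51.2 to 111) CPM in females and 50.4 (37.9 to 64.9) CPM in males, a log2 of -0.66 ± 0.11, and C1qc had 68.2 (48.03 to 87.8) and 46.5 (29.9 to 56.6) CPM, a log2 of -0.62 ± 0.10. C1qb at -0.46 ± 0.11 fell short of the fold threshold, and Fcna was at -0.36 ± 0.12. In the lysosomal group 5 of 6 were called, Lyz1 at -0.77 ± 0.21, Cd68 at -0.77 ± 0.19, Lyz2 at -0.68 ± 0.11, Ctss at -0.65 ± 0.11 and Slc11a1 at -0.52 ± 0.15. Only Mpeg1, at -0.40 ± 0.09, was not. Of the 7 signalling genes tested, Aif1 (-0.78 ± 0.19), Tyrobp (-0.62 ± 0.16) and Ptprc (-0.53 ± 0.12) were called. Csf1r (-0.41 ± 0.10), Hmox1 (-0.28 ± 0.24) and Lgals3 (-0.50 ± 0.18) were not.

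**Figure D4:**
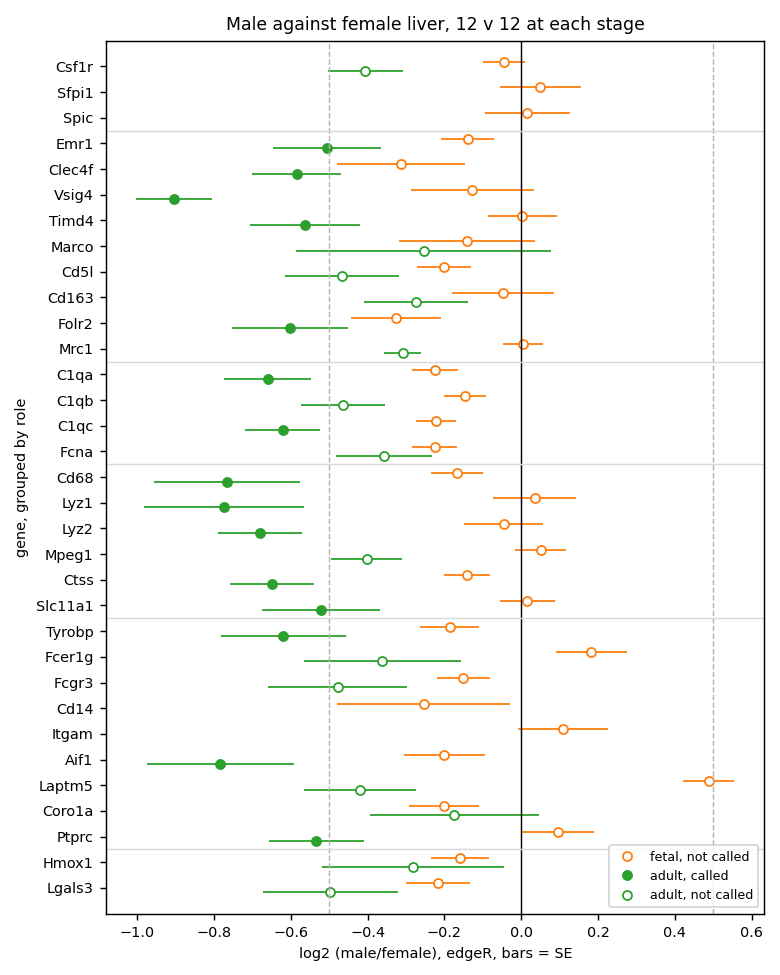
Log2 (male/female) of each member with its standard error in fetal (orange) and adult (green) liver, 12 livers of each sex at each stage. Filled points passed both thresholds, which no fetal point did, and all 29 adult values lie left of 0.

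The share of reads outside genes ranged from 25.7% to 36.6% in female and from 28.0% to 35.2% in male adult livers. With this share as a covariate, 14 members were called lower in males, with a median log2 of -0.48, against 6.36% of all genes. In a split chosen after seeing the data, 6 males and 6 females had under 30% of reads outside genes, and 26 of 29 members were called lower in males, against 7.31% of all genes, with a median log2 of -0.79. In the 6 males and 6 females at or above 30%, 3 of 26 tested were called lower, Vsig4, Timd4 and Cd68, against 4.72% of all genes, with a median of -0.19 and 20 negative values. For Vsig4 the log2 was -1.13 ± 0.13 and -0.62 ± 0.11, and for C1qa -0.97 ± 0.13 and -0.29 ± 0.13. The females under 30% were livers 13 to 18 by title number, and those at or above it were 19 to 24. Every adult liver under 2000000 reads on genes lay at or above 30%. The class cannot be told apart from title number in females, and it goes with low depth. The difference between the classes was itself tested with an edgeR interaction, in which 0 of 29 members were called, with a smallest adjusted p of 0.210. In this test 0.0289% of all genes were called higher and 0.0482% lower. Of 29 members 28 had a negative difference, with a median of -0.61 against -0.006 over all genes. An unadjusted p under 0.05 in this interaction was found for 20 members, and the share of all genes is not given here. Mean CPM in females was higher under 30% than at or above it for all members but Timd4, Cd68 and Itgam. For Csf1r these means were 153 and 110 CPM in females and 96.8 and 106 CPM in males.

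Multiple alignments, summed hepatocyte markers and the erythroid gene Alas2 also moved with sex. Alignments at several places per read on genes ranged from 0.703 to 1.17 in female and from 1.09 to 2.26 in male adult livers. These ranges overlapped only between 1.09 and 1.17, so sex and this ratio can hardly be told apart in adult liver. With this ratio as a covariate, also chosen after seeing the data, 8 of 29 members were called lower, against 3.56% of all genes. Without the adult livers under 2000000 reads on genes, which all had at least 30% of reads outside genes, 22 of 30 were called lower, against 6.76%. Hepatocyte markers summed to 61817 to 77608 CPM in females and 52321 to 60545 CPM in males, and erythroid markers to 19.3 to 59.3 CPM in females and 194 to 251 CPM in males. Of the 11 erythroid markers, Ermap, Hba-a1 and Hbb-b1 had no read in any adult liver. Rhd had none in adult females and Gata1 none in adult males, and only Alas2 had enough reads to be tested. The other lists gave 1 lower gene each of 11 sinusoidal endothelial, 10 stellate cell, 8 hepatocyte and 1 cholangiocyte genes tested, and 1 higher gene each of 1 neutrophil and 1 erythroid gene tested, the latter Alas2 with a log2 of 2.79. Of all genes, 6.48% were called lower and 3.01% higher in that fit. Its median log2 (male/female) was -0.23 over the endothelial, -0.28 over the stellate cell and -0.19 over the hepatocyte genes. That compares with -0.51 over the members and -0.001 over all genes. The 1 dendritic cell gene tested was not called, and no monocyte, megakaryocyte, mast cell and basophil, B lineage or T and NK gene had enough reads. The part of these measures in the sex difference was not tested beyond these fits.

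**Figure D5:**
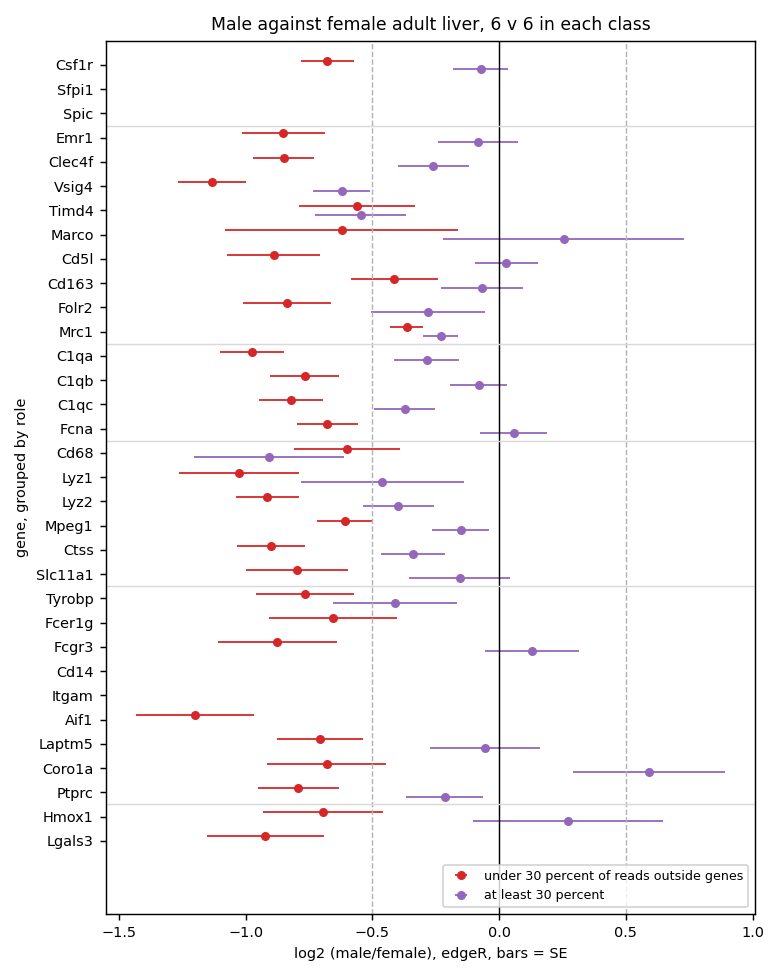
Log2 (male/female) with its standard error in adult livers with under 30% (red) and at least 30% (purple) of reads outside genes, 6 males and 6 females in each. The median of the members was -0.79 in the first class and -0.19 in the second. The split was chosen after seeing the data, and 0 of 29 members were called in the test of the difference between classes.

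The sex difference was compared between stages by an interaction in the 48 livers. Of 33 members, 9 were lower and 0 higher, meaning that log2 (male/female) was lower in adult than in fetal liver, against 8.53% of 13026 genes called lower and 5.19% called higher. The median difference was -0.37 over members and 0.01 over all genes. Laptm5 differed most, by -0.88 ± 0.15 (edgeR adjusted p = 1.49e-05), with -0.42 in adult and 0.49 in fetal liver. The other 8 were Sfpi1 (-0.77 ± 0.26), Lyz1 (-0.76 ± 0.24), Vsig4 (-0.73 ± 0.19), Lyz2 (-0.59 ± 0.16), Ptprc (-0.58 ± 0.16), Cd68 (-0.55 ± 0.19), Aif1 (-0.54 ± 0.21) and Timd4 (-0.52 ± 0.17). Sfpi1 had too few reads to be tested for sex in adult liver alone, with means of 2.98 CPM in adult males and 5.15 CPM in adult females. No complement gene was among the members called. With the ratio of multiple alignments as a covariate, which nearly separated the sexes in adult liver, 3 members were called lower, against 4.56% of all genes. With the share of reads outside genes as a covariate more members were called lower than in the main fit, as given in the section on processing. The interaction holds the fetal sex difference, which cannot be told apart from that share. Of 86 further macrophage genes tested, 24 were lower and 2 higher, with Ctsc (-1.33) and Mertk (-0.71) among the lower and Blvrb (0.70) and Cebpb (1.23) among the higher.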

How the data were processed

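The authors deposited raw read counts per gene for each of 64 libraries. Per the labels and the study's methods, reads were aligned to mm10 with TopHat2 2.0.4, Bowtie2 2.1.0 and SAMtools 0.1.18, duplicates were removed with Picard, and reads were counted with HTSeq. The strand setting of HTSeq is not given in the sources used here. Libraries were grouped by the gender and Stage labels. HTSeq's 5 classes of unassigned reads were kept out of library sizes. Reads in no gene made up 8.63% to 49.0% of the uniquely aligned reads.

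Counts were tested with edgeR 4.0.16 in R 4.3.3 (TMM, filterByExpr, two-sided quasi-likelihood F test) with Benjamini-Hochberg adjustment over all genes tested, at an adjusted p under 0.1 and an absolute log2 above 0.5, as in the study, which used DESeq2. The SE was the absolute log2 over the square root of F. The script was tested on simulated data. Members, lists and promoter motifs were chosen with earlier results of these data known. All members were named, with the 3 further macrophage genes called in each direction with the smallest adjusted p per comparison. A result that this rule would name is not reported here. Alternatives were DESeq2 1.42.0, its size factors, upper quartile scaling, no filter, other thresholds, covariates and subsets of livers. Summaries used Python 3.11.15 and pandas 2.3.3. The level that 3 reads can show covers counting error only.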

Additional observations from a re-analysis of the deposited data

Results flagged for a closer look

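The sex difference of 9 members differed between fetal and adult liver in the edgeR interaction, as log2 (male/female) in adult minus fetal liver: Sfpi1 -0.77, Vsig4 -0.73, Timd4 -0.52, Cd68 -0.55, Lyz1 -0.76, Lyz2 -0.59, Aif1 -0.54, Laptm5 -0.88 and Ptprc -0.58. Of these, Sfpi1 had too few reads to be tested for sex in adult liver alone. Among single embryos, 7 of 19 sets of values held 1 embryo far from the others of its sex. Male embryos held such a value for Timd4 (5.11 CPM), Folr2 (23.2 CPM), Cd68 (8.99 CPM), Slc11a1 (3.95 CPM), Hmox1 (2.28 CPM) and Lgals3 (43.4 CPM), and female embryos for Cd68 (5.12 CPM). By chance the rule flags about 1 in 20 sets if values are normally distributed. In several of these sets most embryos had no read, so that rate does not hold for them.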

How the results depend on the processing

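The counts of members called in adult against fetal liver stayed within 1.5 times under all alternatives run, at 4 to 6 higher and 16 to 21 lower. Without the fold threshold, 1 member was higher and 11 lower in fetal males (17.7% and 19.5% of all genes), 24 were lower in adult males (17.7%) and 19 were lower in the interaction (14.9%). With the multiple alignment covariate, chosen after seeing the data, 1 was higher in fetal males (Laptm5, against 4.48% of all genes), 8 were lower in adult males (3.56%) and 3 in the interaction (4.56%). This covariate nearly separated the sexes in adult liver. The share of reads outside genes as a covariate gave 18 in the interaction (5.29%). In adult livers under and at or above 30% of reads outside genes, a split also chosen after seeing the data, 26 and 3 were lower (7.31% and 4.72%). The causes were not tested. Outside the fold threshold alternative, 20 of the 24 calls in adult against fetal liver held in every alternative, the others being Csf1r, Cd68, Slc11a1 and Cd14, as did Vsig4 alone for adult sex and Laptm5 and Lyz2 for the interaction. Same-numbered fetal and adult livers did not deviate together (24 pairs, r from -0.085 to 0.045), and the fit with the replicate block gave 5 higher and 19 lower. All 54 sign changes were of members that had not been called. For adult against fetal liver, the log2 values of the opposite sign were Cd5l 0.024 and Aif1 0.31 with the multiple alignment covariate, then Cd5l 0.006, Fcna 0.019 and Aif1 0.14 with females only, then Mrc1 -0.01, C1qa -0.19, Mpeg1 -0.22 and Ctss -0.15 with males only, then C1qa -0.052 and Mpeg1 -0.081 with DESeq2's size factors, then C1qa -0.055 and Mpeg1 -0.085 with upper quartile scaling, then C1qa -0.0043 and Mpeg1 -0.033 with no expression filter, then C1qa -0.052 and Mpeg1 -0.081 with DESeq2, then Fcna 0.028 with no adult livers under 2000000 reads. For fetal sex, the log2 values of the opposite sign were Csf1r 0.086, Emr1 0.072, Marco 0.60, Cd5l 0.12, Folr2 0.023, Mrc1 -0.0042, C1qa 0.033, C1qb 0.14, C1qc 0.079, Fcna 0.0041, Cd68 0.038, Lyz2 0.32, Tyrobp 0.21, Fcgr3 0.043, Cd14 0.18, Aif1 0.034, Coro1a 0.18, Hmox1 0.22 and Lgals3 0.25 with the share of reads outside genes as a covariate, then Spic -0.0002, Timd4 -0.012, Mrc1 -0.012 and Slc11a1 -0.0002 with upper quartile scaling, then Spic -0.029 and Cd163 0.018 with the multiple alignment covariate. For adult sex, the log2 values of the opposite sign were Marco 0.25, Cd5l 0.029, Fcna 0.058, Fcgr3 0.13, Coro1a 0.59 and Hmox1 0.27 with livers at or above 30% outside genes only, then Fcer1g 0.18 and Coro1a 0.0008 with the multiple alignment covariate. For the interaction, the log2 values of the opposite sign were Fcer1g 0.082 with the multiple alignment covariate, then Coro1a -0.27 with the share of reads outside genes as a covariate, then Coro1a -0.17 with no adult livers under 2000000 reads. In adult liver, 4 members had too few reads to be tested for sex.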
